A study of Mus musculus with 4 samples.

Results

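The Slc25a genes encode the mitochondrial carriers, a family of membrane proteins that move metabolites, nucleotides, cofactors and ions across the inner mitochondrial membrane. Most exchange 1 solute for another: the ADP/ATP carriers bring ADP in and send ATP out, the phosphate carrier supplies phosphate for ATP synthesis, and others link the citric acid cycle, amino acid breakdown, fatty acid oxidation and haem synthesis to the cytosol. In the small intestine, absorptive enterocytes burn glutamine and fatty acids and make citrulline, and each of these routes crosses the inner membrane through a carrier. The genes were chosen by name, as every non-control probe whose gene name on the array begins with Slc25a. That rule found 42 genes on 73 probes, of 28632 gene names on 41174 probes in all.

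Epithelial crypts from the small intestine of 2 mice were split, and RNA was taken from 1 part at once and from the other after 1 week in culture. The cultured part formed organoids, closed epithelial structures that grow in Matrigel, here with Noggin at 100 ng/ml, R-spondin at 500 ng/ml and EGF at 10 to 50 ng/ml. The labels give no strain, genotype, sex or age. Each 2-colour Agilent array held both RNAs of a mouse, 1 in Cy3 and 1 in Cy5, and was repeated with the dyes exchanged, which gave 4 arrays. Both arrays of a mouse hold the same pair of RNAs and were averaged, so n = 2 mice, and a value is the mean log2 ratio of organoid over crypt ± the SD of both animals. A gene is said to have passed the test, to have risen or to have fallen where limma's Benjamini-Hochberg adjusted p over 15538 genes was under 0.05.

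In each channel 51.5% to 67.3% of the probes exceeded background clearly, and the number of arrays and mice limits the precision of every value. Of the lists of cell markers, 11 of 12 enterocyte genes, 7 of 7 Paneth cell genes and 4 of 5 goblet cell genes fell, with medians of -1.80, -2.38 and -1.65. The mean log2 intensity of the enterocyte list was 15.40 and 15.20 in crypts and 13.51 and 13.26 in organoids. Of 6 genes of crypt base stem cells 2 rose, Lgr5 (2.29 ± 0.05) and Smoc2 (0.95 ± 0.17), and the list median was 0.20. The others did not pass: Axin2 stood at 0.48 ± 0.15, Olfm4 at -0.09 ± 0.21, Ascl2 at -0.22 ± 0.12 and Tnfrsf19 at -0.38 ± 0.04. Of 13 white blood cell genes 2 fell, Lyz2 (-2.32 ± 0.18) and Cd3g (-1.04 ± 0.06), and the mean log2 intensity of that list was 8.80 and 8.85 in crypts and 8.32 and 8.41 in organoids. That mean includes Lyz2, at 15.96 and 15.99 in crypts, whereas the next brightest gene, Cd14, lay at 9.39 and 9.99. Lyz1 of the Paneth cell list fell too (-2.92 ± 0.11), from 17.74 and 17.53 in crypts. Whether the Lyz2 probe also reads Lyz1 was not tested. Of 12 genes of stroma, muscle and vessel, 8 were too dim to be tested and 1 of the other 4 fell, Acta2 (-0.66 ± 0.01). Of 7 epithelial genes Krt18 rose (1.26 ± 0.36), Krt8 (-0.90 ± 0.15) and Krt19 (-0.72 ± 0.05) fell, and 4 did not pass, among them Epcam (-0.59 ± 0.05) and Cdh1 (-0.31 ± 0.15). These marker shifts run alongside every difference below, and their part in the carrier differences was not tested. In RNA of a cell mixture, fewer cells of a type and less RNA per cell cannot be told apart.

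Slc25a4 and Slc25a5 encode the ADP/ATP carriers that these RNAs expressed, and because the proteins are close paralogs the letters of their probes decide whether the array can tell them apart. The probes that carry the values below lie over the same stretch of both transcripts. They are printed 5′ to 3′, with capitals for letters that differ between them where they overlap.
Slc25a4 probe, mm9 chr8:47292828-47292887, minus strand: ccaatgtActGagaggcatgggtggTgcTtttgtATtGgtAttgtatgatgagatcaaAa
Slc25a5 probe, mm9 chrX:34338475-34338534, plus strand: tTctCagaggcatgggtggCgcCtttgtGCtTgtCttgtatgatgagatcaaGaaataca
The best ungapped overlap of the pair was 54 bases with 45 matches and 9 mismatches (83.3% identity). For the 34 other tested members the best overlap of at least 30 bases with a probe of another Slc25a gene reached at most 64.5%. A further Slc25a4 probe covers another part of the transcript, and it was not compared with the Slc25a5 transcript.
Slc25a4, second probe, mm9 chr8:47294441-47294500, minus strand: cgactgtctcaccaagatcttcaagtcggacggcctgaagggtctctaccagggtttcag
The Slc25a3 probe spans more genome than its 60 letters, so it crosses a junction between exons.
Slc25a3 probe, mm9 chr10:90580961-90581502, minus strand: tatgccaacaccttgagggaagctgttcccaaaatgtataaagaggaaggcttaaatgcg
Probes of this array are made against transcripts, and the files do not say which part of a transcript each covers.

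Of the 42 genes, 36 had a probe bright enough to be tested, and 35 of these were well above background in all 8 channels. Slc25a42, a coenzyme A carrier, was above background in all 4 crypt channels and in 3 of 4 organoid channels. The other 6 genes were not tested. Slc25a21 (oxoadipate carrier), Slc25a31 (an ADP/ATP carrier known from testis) and Slc25a41 were not well above background in any channel. Slc25a18, a glutamate carrier, was above background in 2 of 4 crypt channels and 0 of 4 organoid channels. Slc25a2, an ornithine carrier, was above it in 2 of 4 channels of each tissue, and both probes of Slc25a43 in 1 crypt channel and 0 organoid channels.

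Of the 36 tested genes 7 passed the test (19.4%), against 10.9% of all genes tested. Slc25a4 and Slc25a17 rose, which is 2 of 36 beside 5.43% of all genes, and Slc25a45, Slc25a22, Slc25a5, Slc25a10 and Slc25a3 fell, which is 5 of 36 beside 5.49%. Treating the 4 arrays singly, with the mouse as a random block and no dye term, gave 5 higher and 6 lower, while calls over all genes grew to 10.2% higher and 9.59% lower. This fit added Slc25a1 (adjusted p = 0.0180), Slc25a33 (0.0465), Slc25a36 (0.0473), Slc25a25 (0.0101) and Slc25a38 (0.0441) and lost Slc25a5 (0.0828). With a residual correlation of 0.173 within a mouse, it counted the 2 arrays of a mouse as nearly independent. Only 2 members moved at least 2-fold in both mice: Slc25a4 upward (1.62% of all genes) and Slc25a45 downward (2.3% of all genes). Within 2-fold in both mice lay 31 members (86.1%, beside 90.9% of all genes). The median over the members was -0.07, with 0.01 in mouse 1 and -0.11 in mouse 2, beside 0.02 over all genes. Members lay on both sides of 0. The ratio had the same sign on all 4 arrays for 21 members (58.3%, beside 47.1% of all genes), of which 10 were higher and 11 lower in organoids. It had the same sign in both mice for 29 (80.6%, beside 68.9%). Before adjustment 13 members had a p under 0.05 (36.1%, beside 27.6% of all genes).

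**Figure D1:**
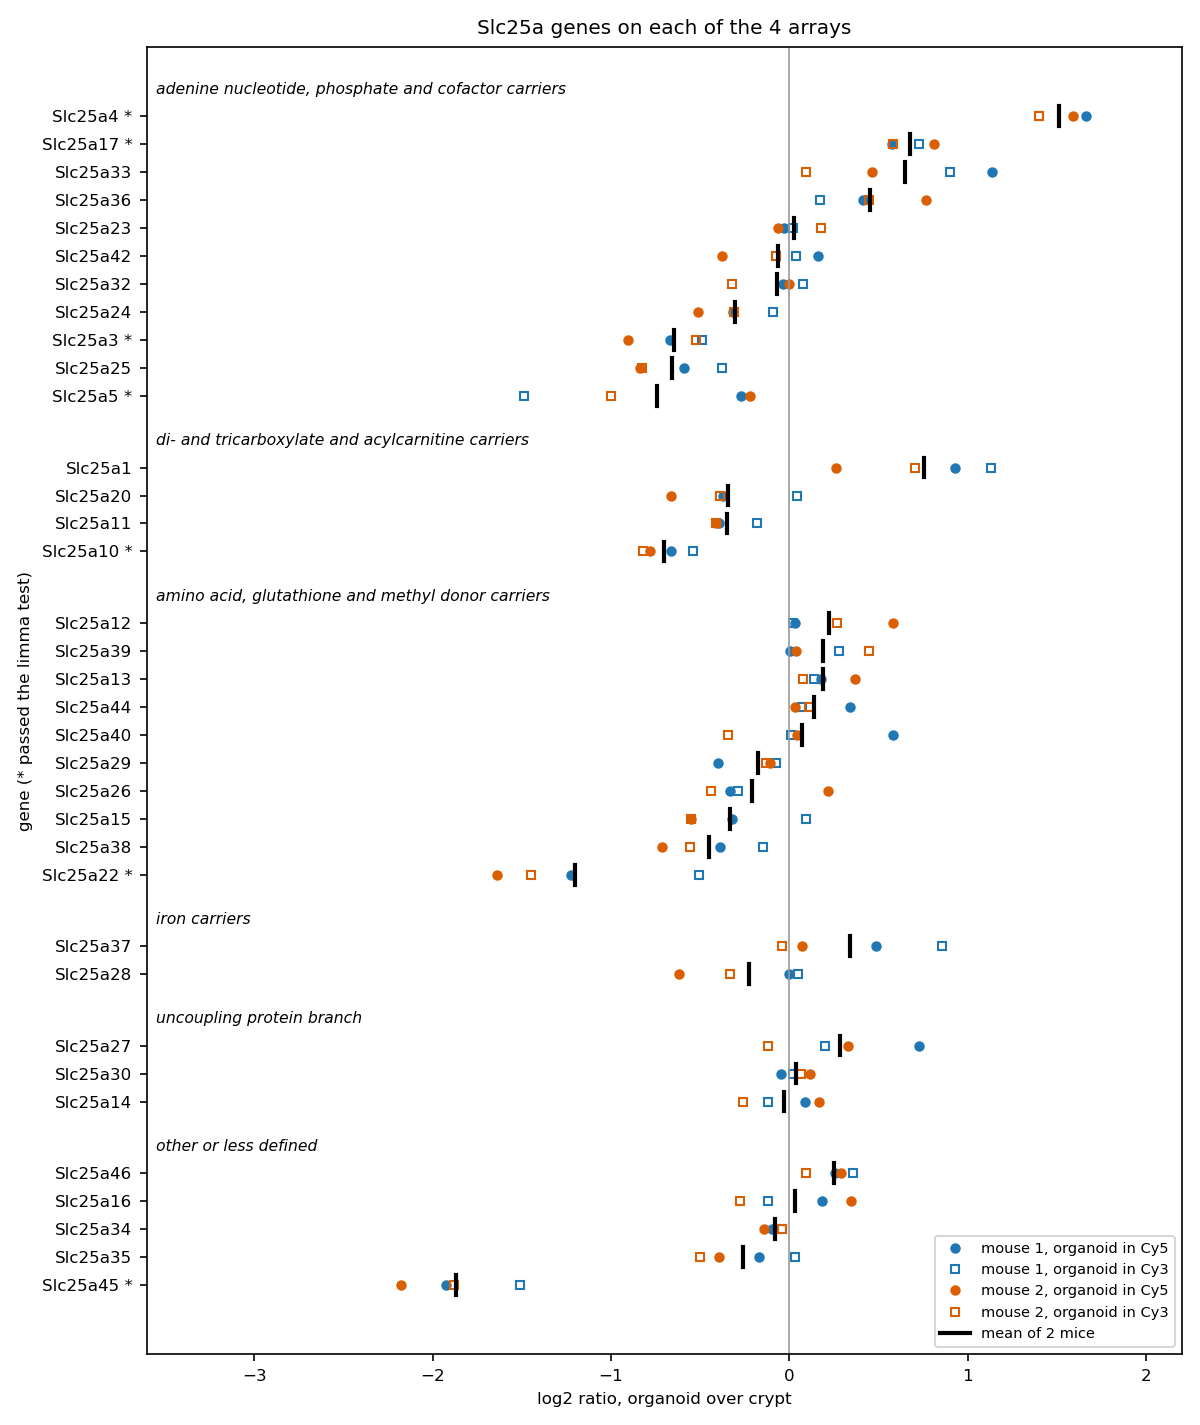
Log2 ratio of organoid over crypt (x axis) of 35 tested Slc25a genes (y axis), grouped by what they carry; points are the 4 arrays, coloured by mouse and shaped by the dye of the organoid RNA, and bars are the mean of 2 mice. Slc25a4 and Slc25a45 stand at 1.51 and -1.87 at the ends of the range, and the 2 dye orientations of Slc25a5 lie apart.

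The clearest rise was that of Slc25a4, the ADP/ATP carrier best known from heart and skeletal muscle. Its log2 ratio was 1.66 and 1.40 on the arrays of mouse 1 with the organoid in Cy5 and in Cy3, and 1.59 and 1.40 on those of mouse 2. All 4 values lie within a narrow band well above 0. The log2 intensity went from 11.68 to 13.21 in mouse 1 and from 11.75 to 13.24 in mouse 2. The mean was 1.51 ± 0.03 (SD, n = 2), 2.85-fold higher in organoids (limma adjusted p = 0.00477). The second probe printed above gave 1.69 in mouse 1 and 1.52 in mouse 2. Slc25a4 kept its call in 9 of 10 other processings, and with median centring in place of loess its adjusted p was 0.0502.

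Slc25a5, the ADP/ATP carrier of most dividing and epithelial cells, went the other way. Its log2 ratio was -0.27 and -1.49 on the arrays of mouse 1 with the organoid in Cy5 and in Cy3, and -0.22 and -0.999 on those of mouse 2. The sign was negative on all 4 arrays, but the size followed the dye. The log2 intensity went from 16.99 to 16.11 in mouse 1 and from 16.78 to 16.17 in mouse 2. The mean was -0.74 ± 0.19, 1.68-fold lower (adjusted p = 0.0346). Its dye effect, the distance of either orientation from their mean, was 0.50, a size exceeded by 0.521% of all genes. With the organoid in Cy5 alone the ratio was -0.25 (adjusted p = 0.419) and with it in Cy3 alone -1.24. The adjusted p was 0.0828 with the mouse as random block and no dye term. Over 4 arrays with a dye effect it was 0.0113, but that fit counts the 2 arrays of a mouse as independent. No member spot was saturated on any array. RefSeq lists a pseudogene of this gene, Slc25a5-ps, and the probe was not compared with it.

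Array by array, the log2 ratio of Slc25a4 minus that of Slc25a5 was 1.93 and 2.89 in mouse 1 and 1.81 and 2.40 in mouse 2. It averaged 2.26 ± 0.22 over the mice, and was 2.04 with median centring and 1.87 to 2.64 over the 10 other processings. The balance of both carrier transcripts thus stood higher for Slc25a4 in organoids on every array, by an amount that again varied with the dye.

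**Figure D2:**
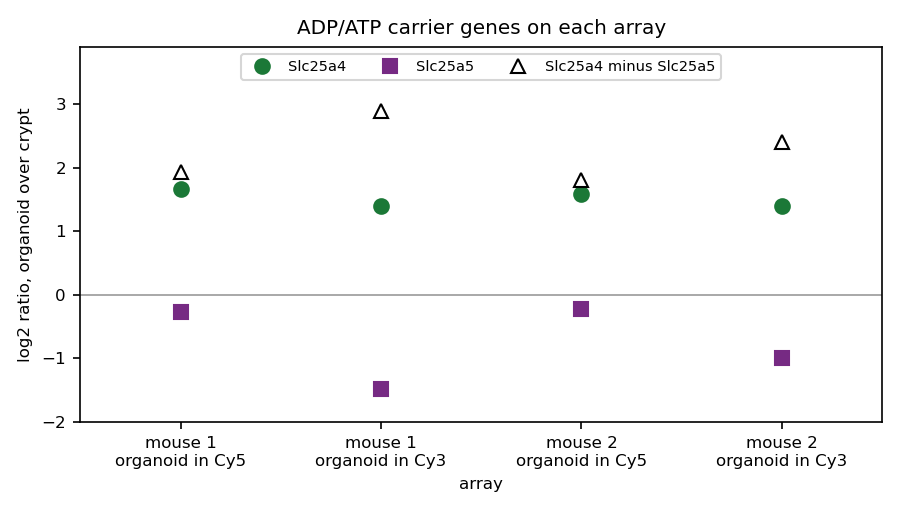
Log2 ratio of organoid over crypt (y axis) of Slc25a4 and Slc25a5 on each of the 4 arrays (x axis), with their difference as open triangles. Slc25a4 is above 1.3 and Slc25a5 below 0 on every array; the Slc25a5 values with the organoid in Cy3 (-1.49 and -0.999) lie below those with it in Cy5 (-0.27 and -0.22).

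The bases upstream of both genes are shown because the paralogs moved in opposite directions. They are the 250 bases before each RefSeq start, 5′ to 3′ on the gene's strand, with matches to the motifs named next in capitals.
Slc25a4 upstream, GRCm38.p6 chr8:46211063-46211312, minus strand: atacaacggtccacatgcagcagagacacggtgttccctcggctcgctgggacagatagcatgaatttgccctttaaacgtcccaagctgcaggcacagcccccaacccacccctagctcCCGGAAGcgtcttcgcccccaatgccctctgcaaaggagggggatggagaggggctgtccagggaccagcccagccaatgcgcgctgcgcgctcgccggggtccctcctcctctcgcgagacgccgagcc
Slc25a5 upstream, GRCm38.p6 chrX:36795347-36795596, plus strand: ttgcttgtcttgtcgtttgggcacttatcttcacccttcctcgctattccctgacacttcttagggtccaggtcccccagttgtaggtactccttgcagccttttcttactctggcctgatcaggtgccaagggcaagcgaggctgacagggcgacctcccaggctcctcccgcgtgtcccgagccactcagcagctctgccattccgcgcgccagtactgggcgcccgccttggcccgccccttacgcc
The motifs were CCGGAAG (the core bound by ETS factors such as GABPA), CACGTG (the E-box) and TATAA (the TATA box core), searched on both strands, and none contains another. RefSeq's promoter table held 32 of the 42 members, including all 7 that passed the test. CCGGAAG was found upstream of 5 members (15.6%), Slc25a3, Slc25a4, Slc25a17, Slc25a20 and Slc25a38, and upstream of 7.8% of 27025 genes. CACGTG was found upstream of 7 members (21.9%, beside 6.9%) and TATAA upstream of Slc25a15, Slc25a18 and Slc25a21 (9.4%, beside 25.8%). No motif was matched in the Slc25a5 window. A match is a run of letters and was not tested as a binding site.

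The phosphate carrier Slc25a3, which works together with the ADP/ATP carriers in supplying ATP synthase, fell in the same direction as Slc25a5. Its log2 ratio was -0.67 and -0.49 in mouse 1 and -0.91 and -0.53 in mouse 2, with the organoid in Cy5 given before Cy3 here and below. The log2 intensity went from 14.72 to 14.14 and from 14.66 to 13.94. The mean was -0.65 ± 0.10, 1.57-fold lower (adjusted p = 0.0413). Its remaining probes did not give the same picture in both animals, with -0.04 and 0.05 in mouse 1 and -1.67 and -1.29 in mouse 2. The call held in 4 of 10 other processings, and averaging the 3 probes gave -0.71 with an adjusted p of 0.166.

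Slc25a17, a carrier of coenzyme A, FAD and NAD that sits in the peroxisomal membrane, rose. Its log2 ratio was 0.58 and 0.73 in mouse 1 and 0.81 and 0.58 in mouse 2, and all 4 values lay above 0. The log2 intensity went from 12.40 to 13.05 and from 12.62 to 13.32. The mean was 0.67 ± 0.03, 1.60-fold higher (adjusted p = 0.0350). Both further probes were higher too, at 0.44 and 0.51 over the mice, and averaging all 3 probes gave 0.54 with an adjusted p of 0.0622. The call held in 4 of 10 other processings.

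The pyrimidine nucleotide carriers, which supply the nucleotides for mitochondrial DNA and RNA, were higher on all 4 arrays by the probes used, without passing the test. Slc25a33 had log2 ratios of 1.13 and 0.90 in mouse 1 and 0.46 and 0.09 in mouse 2, a mean of 0.65 ± 0.52 (adjusted p = 0.119). The mice differed more for this gene than for any member that passed. Slc25a36 stood at 0.45 ± 0.22 (adjusted p = 0.121), but its second probe gave -0.02 in mouse 1 and 0.40 in mouse 2. Among the ATP-Mg/phosphate carriers, which calcium regulates and which adjust the matrix adenine nucleotide pool, Slc25a25 came nearest to the threshold. The arrays gave log2 ratios of -0.59 and -0.38 in mouse 1 and -0.83 on both arrays of mouse 2, a mean of -0.66 ± 0.25 (adjusted p = 0.0553). All 3 of its probes were below 0 in both mice. Slc25a24 stood at -0.31 ± 0.15 and Slc25a23 at 0.03 ± 0.04. The cofactor carriers Slc25a32 (folate and FAD, -0.07 ± 0.13) and Slc25a42 (coenzyme A, -0.06 ± 0.23) lay near 0 with SDs larger than their means. Of the 12 tested carriers of adenine nucleotides, phosphate and cofactors, 2 rose, 2 fell and 8 did not pass, with a median of -0.07. Over all genes, 5.43% rose and 5.49% fell.

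**Figure D3:**
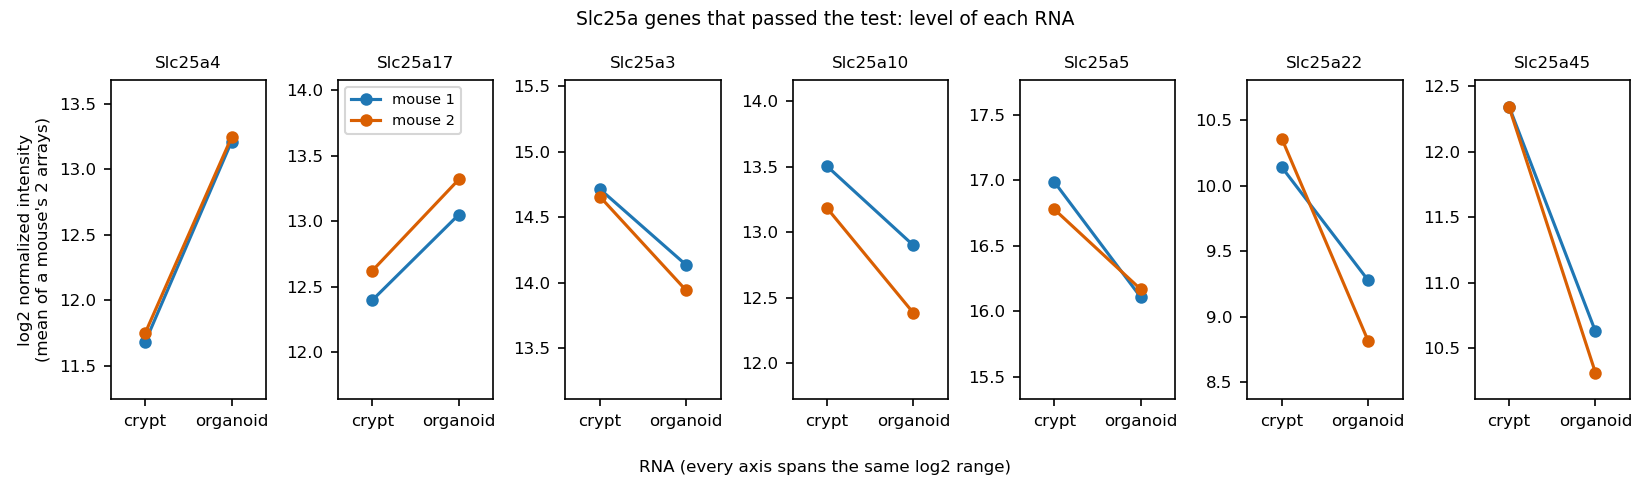
Log2 normalized intensity (y axis) in the crypt and organoid RNA (x axis) of each mouse for the 7 Slc25a genes that passed the test; each point is the mean of a mouse's 2 arrays, and every panel spans the same log2 range. Crypt and organoid values do not overlap in any panel, but the genes were picked by a test on these same RNAs. The share of all genes without overlap was not counted. Slc25a4 goes from 11.68 to 13.21 and Slc25a45 from 12.34 to 10.63 in mouse 1, and Slc25a22 from 10.36 to 8.82 in mouse 2.

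The carriers of di- and tricarboxylates did not move together. Slc25a10, the dicarboxylate carrier that exchanges malate or succinate for phosphate, fell. On the arrays it stood at -0.67 and -0.54 in mouse 1 and -0.78 and -0.82 in mouse 2. The log2 intensity went from 13.50 to 12.90 and from 13.18 to 12.38. The mean was -0.70 ± 0.14, 1.63-fold lower (adjusted p = 0.0359), and the call held in 5 of 10 other processings. Slc25a1, the citrate carrier that exports citrate for cytosolic fatty acid and sterol synthesis, pointed the other way and did not pass. The log2 ratios were 0.93 and 1.13 in mouse 1 and 0.26 and 0.70 in mouse 2, a mean of 0.76 ± 0.39 (adjusted p = 0.0595). Slc25a11, the oxoglutarate carrier, stood at -0.35 ± 0.09 (adjusted p = 0.164), below 0 on all 4 arrays.

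Enzymes next to the citrate carrier were read from the same fit. For this and the later lists, the shares of all genes that rose and fell are 5.43% and 5.49%. Of 8 genes of citrate export and fatty acid synthesis, 2 rose: Fasn (fatty acid synthase, 1.16 ± 0.43, adjusted p = 0.0219) and Me1 (cytosolic malic enzyme, 1.24 ± 0.03, adjusted p = 0.00747). Acly, which splits exported citrate in the cytosol, stood at 0.75 ± 0.34 (adjusted p = 0.0520), close to the value of Slc25a1. Citrate synthase, Cs, which makes citrate in the matrix, stood at -0.55 ± 0.02 (adjusted p = 0.0605). The median of the list was 0.02.

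The carnitine shuttle takes long-chain fatty acids into mitochondria, and its inner membrane step is Slc25a20, the carnitine/acylcarnitine carrier. Slc25a20 stood at -0.35 ± 0.26 (adjusted p = 0.219), with -0.17 in mouse 1 and -0.53 in mouse 2. Of the 9 other genes of this route 5 fell and 1 rose, with a median of -0.66. Of the carnitine palmitoyltransferases, Cpt1a fell at -1.72 ± 0.09 (adjusted p = 0.00380) and Cpt2 at -0.80 ± 0.05 (adjusted p = 0.0227). Cpt1b, at -0.36 ± 0.34, did not pass. The acyl-CoA synthetase Acsl5 (-1.32 ± 0.10), the carnitine acetyltransferase Crat (-0.96 ± 0.07) and the plasma membrane carnitine transporter Slc22a5 (-0.66 ± 0.12) also fell. Acsl3, another acyl-CoA synthetase, rose (1.10 ± 0.06). Whether Slc25a20 differed from its neighbours in the route was not tested.

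Among the amino acid carriers, 1 of 10 tested genes passed, beside 10.9% of all genes tested. Slc25a22, a carrier that takes glutamate into the matrix together with a proton, fell. Single arrays gave -1.22 and -0.50 in mouse 1 and -1.64 and -1.45 in mouse 2. All values were below 0, and the array of mouse 1 with the organoid in Cy3 was the smallest in size. The log2 intensity went from 10.14 to 9.28 and from 10.36 to 8.82. The mean was -1.20 ± 0.48, 2.30-fold lower (adjusted p = 0.0232), and the call held in 7 of 10 other processings. With the organoid in Cy3 alone the ratio was -0.98 (adjusted p = 0.111).

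The malate-aspartate shuttle carries reducing equivalents from cytosolic NADH into mitochondria through the oxoglutarate carrier and the aspartate/glutamate carriers Slc25a12 and Slc25a13. Slc25a12 stood at 0.22 ± 0.28 and Slc25a13 at 0.19 ± 0.04, both above 0 on all 4 arrays and neither past the threshold. The enzymes of this and the glycerol phosphate shuttle gave other values: 3 of 6 fell, none rose, and the median was -0.62. These were the cytosolic enzymes Got1 (aspartate aminotransferase, -1.11 ± 0.41, adjusted p = 0.0228) and Mdh1 (malate dehydrogenase, -0.94 ± 0.10, adjusted p = 0.0161), and the mitochondrial glycerol phosphate dehydrogenase Gpd2 (-0.62 ± 0.03, adjusted p = 0.0430). The mitochondrial partners Got2 (-0.23 ± 0.04) and Mdh2 (-0.59 ± 0.38) did not pass.

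Slc25a15, the ornithine carrier of the urea cycle and of citrulline synthesis, stood at -0.33 ± 0.31 (adjusted p = 0.257), with -0.12 in mouse 1 and -0.55 in mouse 2. Of 11 enzymes of citrulline, ornithine and arginine metabolism, 2 fell and 1 rose. Arg2, the mitochondrial arginase, fell the most (-1.79 ± 0.38, adjusted p = 0.00643). Cps1, which makes carbamoyl phosphate, also fell (-0.63 ± 0.06, adjusted p = 0.0425). Asl, argininosuccinate lyase, rose (0.59 ± 0.01), with an adjusted p just inside the threshold. Otc, which joins ornithine and carbamoyl phosphate, stood at -0.36 ± 0.46.

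The remaining amino acid and related carriers lay between -0.45 and 0.19. Slc25a38, the glycine carrier needed for the first step of haem synthesis, stood at -0.45 ± 0.26 (adjusted p = 0.131) and was below 0 on all 4 arrays. The glutathione carriers Slc25a39 and Slc25a40 stood at 0.19 ± 0.07 and 0.07 ± 0.31. The second probe of Slc25a39 gave -0.01, so its sign depends on the probe. Slc25a26, which imports the methyl donor S-adenosylmethionine, stood at -0.21 ± 0.14, Slc25a29, a basic amino acid carrier, at -0.18 ± 0.08, and Slc25a44, a branched-chain amino acid carrier, at 0.14 ± 0.09.

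The iron importers, the mitoferrins, differed between the mice. Slc25a37 (mitoferrin 1, best known from red cell precursors) was 0.67 in mouse 1 and 0.01 in mouse 2, and its second probe gave 0.12 and -0.35. Slc25a28 (mitoferrin 2) was 0.03 in mouse 1 and -0.47 in mouse 2. Of 15 genes of haem and iron-sulphur synthesis and iron uptake, Cpox, a late enzyme of haem synthesis, rose (0.82 ± 0.03, adjusted p = 0.0214) and Tfrc, the transferrin receptor, fell (-0.68 ± 0.21, adjusted p = 0.0460). Alas1, which condenses the glycine that Slc25a38 imports, stood at -0.65 ± 0.28 (adjusted p = 0.0635). The median of the list was -0.11.

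Slc25a32 brings folate into mitochondria, where the one-carbon enzymes use it. That gene lay at -0.07, whereas 3 of the 6 tested enzymes rose and 0 fell, with a median of 0.66. They were Mthfd1l (1.34 ± 0.01, adjusted p = 0.00606), Shmt2 (0.99 ± 0.34, adjusted p = 0.0250) and Aldh1l2 (0.76 ± 0.18, adjusted p = 0.0316), which respectively make formate, take one-carbon units from serine and oxidize folate-bound formyl groups to carbon dioxide. Whether the carrier and the enzymes differed was not tested.

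The uncoupling protein branch of the family, named for its likeness to the proton-leaking protein of brown fat, did not pass in any tested member. Slc25a27 stood at 0.28 ± 0.25, Slc25a30 at 0.04 ± 0.07 and Slc25a14 at -0.03 ± 0.02. Ucp2, a relative listed under another name, stood at -0.14 ± 0.02, and Ucp1 and Ucp3 were too dim to be tested. The other relatives under other names, Mtch1 (0.15 ± 0.01), Mtch2 (-0.52 ± 0.20, adjusted p = 0.0862) and Slc25a51, the NAD carrier (-0.28 ± 0.19), did not pass either.

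The lowest value of the family was that of Slc25a45, a carrier whose substrates are less well defined. Array values were -1.92 and -1.51 in mouse 1 and -2.17 and -1.88 in mouse 2. Every array put organoids below crypts by more than 2-fold. The log2 intensity was 12.34 in the crypts of both mice and 10.63 and 10.31 in their organoids. The mean was -1.87 ± 0.22, 3.66-fold lower (adjusted p = 0.00394), from 1 probe at mm9 chr19:5885329-5885388, plus strand. The call held in 9 of 10 other processings, and with median centring the adjusted p was 0.0891. The other carriers of this loosely defined group lay close to 0: Slc25a46, an outer membrane protein of mitochondrial shape, at 0.25 ± 0.08, Slc25a16 at 0.03 ± 0.001, Slc25a34 at -0.08 ± 0.01 and Slc25a35 at -0.26 ± 0.27. The sign of Slc25a16 followed the dye, with 0.18 and 0.34 for the organoid in Cy5 and -0.12 and -0.28 in Cy3.

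**Figure D4:**
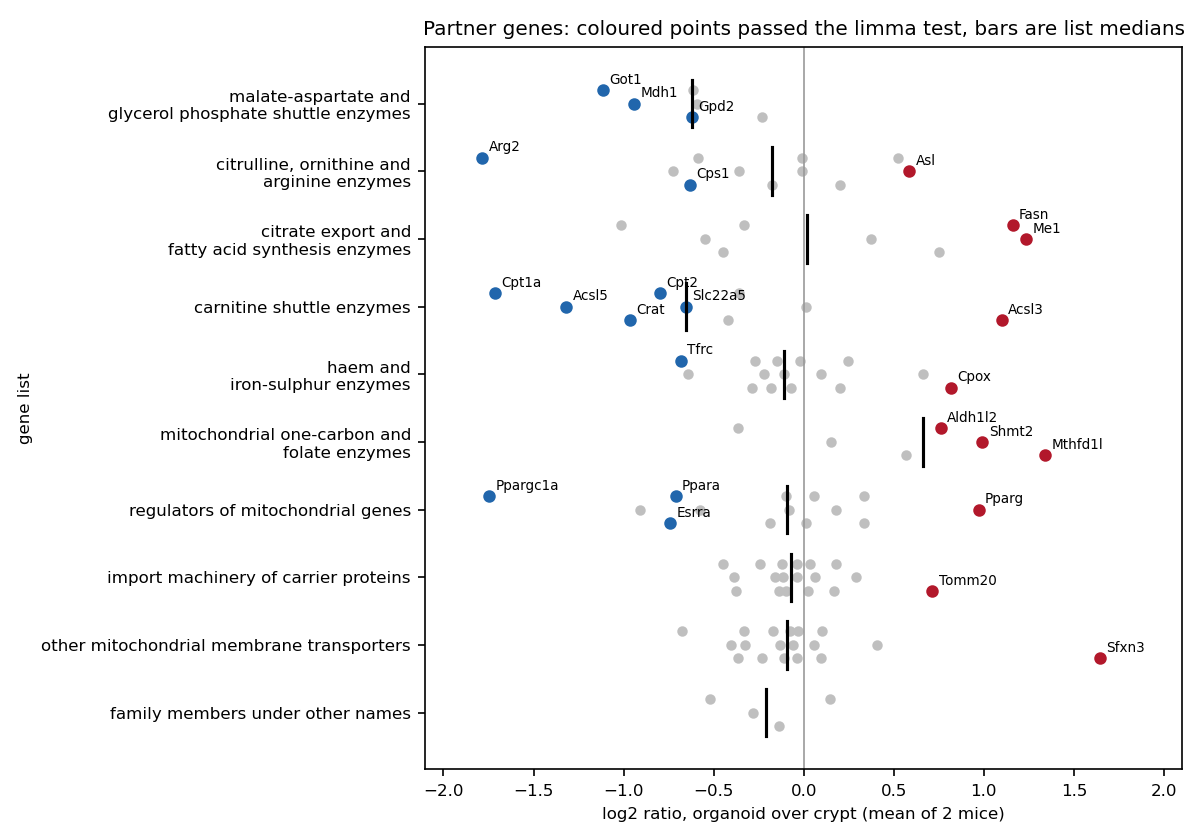
Log2 ratio of organoid over crypt (x axis, mean of 2 mice) of genes that work next to the carriers, by list (y axis); coloured and named points passed the limma test and black bars are list medians. Carnitine shuttle and shuttle enzymes have medians of -0.66 and -0.62, one-carbon enzymes one of 0.66, and import and other transporter lists ones of -0.07 and -0.09.

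Carriers reach the inner membrane through the TOM pore, the small TIM chaperones and the TIM22 complex. Of 18 tested genes of an import list 1 rose, the receptor Tomm20 (0.71 ± 0.26, adjusted p = 0.0459), beside 5.43% of all genes, and none fell. That list also held Timm17a, Timm17b, Timm23, Timm44 and Timm50, which belong to the TIM23 complex. Timm9 and Timm10 were planned for it but dropped out when names were matched to the array, so neither was read. Tomm70a, the receptor that carriers use most, stood at 0.29 ± 0.00 and Timm22 at -0.24 ± 0.05. Of 18 other mitochondrial transporters 1 rose, the sideroflexin Sfxn3 (1.64 ± 0.61, adjusted p = 0.0158), and none fell. The outer membrane channels Vdac1, Vdac2 and Vdac3 lay between -0.11 and -0.04, and the pyruvate carrier subunits Mpc1 and Mpc2 stood at 0.10 ± 0.08 and -0.67 ± 0.30.

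Of 14 regulators of mitochondrial genes 3 fell and 1 rose. Ppargc1a, the coactivator PGC-1alpha, fell (-1.75 ± 0.39, adjusted p = 0.00689), as did its partner Esrra (-0.74 ± 0.23, adjusted p = 0.0389) and Ppara, a receptor for fatty acids (-0.71 ± 0.23, adjusted p = 0.0428). Pparg rose (0.97 ± 0.13, adjusted p = 0.0156). Gabpa, an ETS factor, stood at 0.18 ± 0.01 and Nrf1 at -0.10 ± 0.09, and neither passed.

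For 15 members more than 1 probe was tested, and 17 of 19 further probes had the sign of the probe used. The exceptions were the second probes of Slc25a37 and Slc25a39. Centring each array on its median in place of loess moved the median of all genes to 0.17. Relative to all genes, the median of the members was -0.09 with loess and -0.07 with median centring. Slc25a4 and Slc25a45 then stood at 1.63 and -1.79 relative to all genes, and Slc25a3, Slc25a5 and Slc25a10 between -0.56 and -0.41, but no member passed the test. The called genes kept their sign in all 10 other processings, but some of these could not turn it. With no dim-probe filter, with the mouse as random block and with 4 arrays and a dye effect, their ratios are those reported. Averaging probes likewise leaves called genes without a further probe unchanged.

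**Figure D5:**
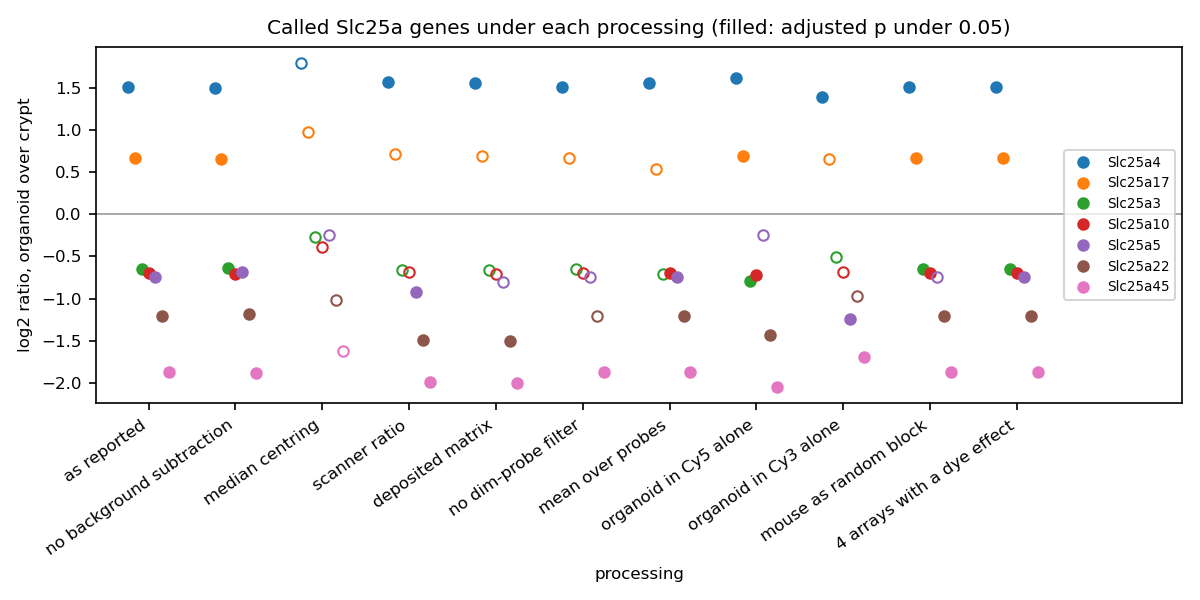
Log2 ratio of organoid over crypt (y axis) of the 7 called Slc25a genes as reported and under each of 10 other processings (x axis); filled points have a limma adjusted p under 0.05 and open points do not. No point crosses 0, Slc25a4 and Slc25a45 are open with median centring alone, and Slc25a5 ranges from -1.24 to -0.25.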

How the data were processed

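Per the labels, 4 arrays compared crypt and organoid RNA of 2 mice with dyes exchanged. The deposited scanner files hold intensity values per spot in both dyes on a linear scale, and the scanner's own log10 ratio of Cy5 over Cy3, read with Agilent Feature Extraction 10.2.1.3 per the file headers and 9.5.3 per the submitters' processing notes. The authors' deposited matrix holds log2 ratios of Cy5 over Cy3; the sources used here do not give its centring. In limma 3.58.1 and R 4.3.3, mean signals were corrected with normexp (offset 50) and loess-normalized with control spots at weight 0, outlier-marked spots were dropped, and spots of a probe were averaged. Tested probes (21923) were well above background on every array in 1 tissue or in both, named by RefSeq accession (24844 of 41174 probes) or the file's gene name, and a gene took its brightest probe. Dye exchanges were averaged and 2 mouse means tested against 0 (lmFit, eBayes, two-sided, 1 residual and 4.16 prior degrees of freedom). Intensities of each RNA follow Aquantile. P-values weigh the mean against the spread between 2 mice, drawn by eBayes toward a prior SD of 0.201 pooled over all genes. With these degrees of freedom the pooled value counts for more than a gene's own spread.

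The carriers and the lists of neighbouring genes and cell markers were chosen with earlier results of these data known. All Slc25a genes enter the counts and all are named but 1, which is not reported here; values for each array went to those that passed the test or moved 2-fold in both mice, and to the 3 nearest the threshold; those of Slc25a16 were added after its values were seen. From each list came genes that passed, with the 3 largest changes in each direction, and those tied to a carrier described. Slc22a5 and Cpt2 were named beyond that limit to complete a count, and Cpt1b to stand beside Cpt1a. Alternatives are other background, centring, ratio, filter, probe and dye choices, and the mouse as a block. Arrays of opposite dye pair by animal, and over genes their ratios correlated at 0.837 in mouse 1 and 0.850 in mouse 2. The residual correlation within a mouse that limma estimated for the random block, without a dye term, was 0.173.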

Additional observations from a re-analysis of the deposited data

How the results depend on the processing

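Of the Slc25a genes, 2 passed the test as higher and 5 as lower. Counts of higher and lower were 0 and 0 with median centring, 1 and 3 with the scanner's ratios, 1 and 2 with the deposited matrix, and 1 and 1 with no dim-probe filter. They were 1 higher with probes averaged, 2 lower with the organoid in Cy3 alone, 5 higher with the mouse as a random block (a replicate block chosen after seeing the data), and 4 and 8 with 4 arrays and a dye effect. The last of these fits counts the 2 arrays of a mouse as independent, and the random block counts them as nearly so. In the neighbouring lists 11 rose and 14 fell at first. The higher count was 1 with median centring, 6 with the organoid in Cy3 alone and 5 with no dim-probe filter. The lower count was 0 with median centring, 8 with the scanner's ratios and with the matrix, 7 with no filter, 28 with the replicate block and 33 with 4 arrays and a dye effect. Over all genes, median centring left 130 higher and 94 lower, no filter 293 and 384, the replicate block 1590 and 1490, and 4 arrays with a dye effect 1952 and 1757, beside 844 and 853 as reported. The median of the members moved to 0.094 with median centring. At least 2-fold lower in both mice were 2 members with the scanner's ratios, the matrix and the organoid in Cy5 alone. With either mouse left out, 1 to 3 members were 2-fold higher and 1 to 2 lower, and the members' median was -0.11 to 0.01. The mice had opposite signs for 7 members, whose sign therefore turns with 1 mouse left out. Under the other settings, signs turned, among the members named, for uncalled ones alone: Slc25a16 (-0.042 with no background subtraction, -0.056 with the scanner's ratios, -0.070 with the matrix, -0.20 in Cy3 alone), Slc25a42 (0.0027 with no background subtraction), and, with median centring, Slc25a11 (0.011), Slc25a14 (0.17), Slc25a28 (0.083) and Slc25a32 (0.13). With the organoid in Cy5 alone Slc25a14 was 0.13 and Slc25a23 -0.045, and in Cy3 alone Slc25a40 was -0.17. With no filter more genes were tested; the cause of the other shifts was not tested. The block with a dye term could not be fitted on 4 arrays, and all arrays share 1 slide and 1 scan, so slide could not be a block.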
